A study of Mus musculus with 44 samples.

Results

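The sites described here are the 288 PCGF1 peaks that shared at least 1 bp with a region of the histone mark H3K27me3 and no base with any peak of RING1B. They were 11.2% (exact 95% Clopper-Pearson interval 10.0 to 12.5) of the 2569 peaks in the PCGF1 list and 22.2% of the 1295 PCGF1 peaks on H3K27me3. They were chosen by the overlap of the deposited peak lists alone, not by the strength of any peak. The other PCGF1 peaks fell into 3 classes: 1007 lay on both RING1B and H3K27me3, 928 on RING1B without the mark, and 346 on neither.

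Chromatin immunoprecipitation was carried out on IdHP cells, mouse haematopoietic progenitors from bone marrow of the strain B6CBAF1/J. They grew with IL7, SCF and Flt3L on a layer of TSt4 stroma cells, were used at passages 15 to 18 and were fixed in 1% formaldehyde for 10 min. PCGF1 was mapped with an antibody to FLAG in Pcgf1 -/- cells carrying FLAG-PCGF1, and RING1B and H3K27me3 were mapped in Pcgf1 fl/fl cells. Each of the 3 lists stands for 2 libraries, and the other 38 of the 44 libraries, the 1 titled NC_for_Pcgf1 included, were not analysed here. The labels do not say how FLAG-PCGF1 was expressed, at what level, or whether the cells were 1 clone.

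PCGF1 belongs to a variant Polycomb repressive complex 1 (PRC1), in which it pairs with the ubiquitin ligase RING1A or RING1B. PRC1 places ubiquitin on histone H2A, and Polycomb repressive complex 2 (PRC2) writes H3K27me3, the mark of genes held silent by the Polycomb system. In many cell types the PCGF1 complex is recruited through the DNA-binding protein KDM2B to CpG islands, and PRC1 and PRC2 then lie on many of the same sites.

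The question asked of the sites was how far each one was from RING1B, in what kind of H3K27me3 region it lay and how its own peak compared with the rest of the PCGF1 list. The overlaps chose the sites, so these are descriptions without a test. Intervals on shares and medians cover counting error only, since peaks are not replicates and no list has a replicate. Absence from the RING1B list says that no peak was called there: the read depth is unknown, and PCGF1 and RING1B were mapped in different cells.

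The RING1B-free sites fell into 2 kinds of neighbourhood, either just beside a RING1B peak or far from one. Counted in bases to the nearest RING1B peak, 111 of the 288 (38.5%, 32.9 to 44.4) lay within 1 kb. Only 12 more lay between 1 and 2 kb, which brought the count to 123, and 10 between 2 and 5 kb, which brought it to 133. The count within 10 kb was 157 (54.5%, 48.6 to 60.4) and within 100 kb 259. The median gap was 6928 bp (95% interval 2982 to 11285), with quartiles at 373.5 and 42331.5 bp and a range of 3 to 778946 bp. Since few gaps lay between 1 and 5 kb, this median stands between the 2 kinds of site and is typical of neither. PCGF1 peaks on neither mark nor RING1B also had both kinds of gap and more often the short one, with 175 of 346 (50.6%, 45.2 to 56.0) within 1 kb and a median gap of 931 bp.

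**Figure D1:**
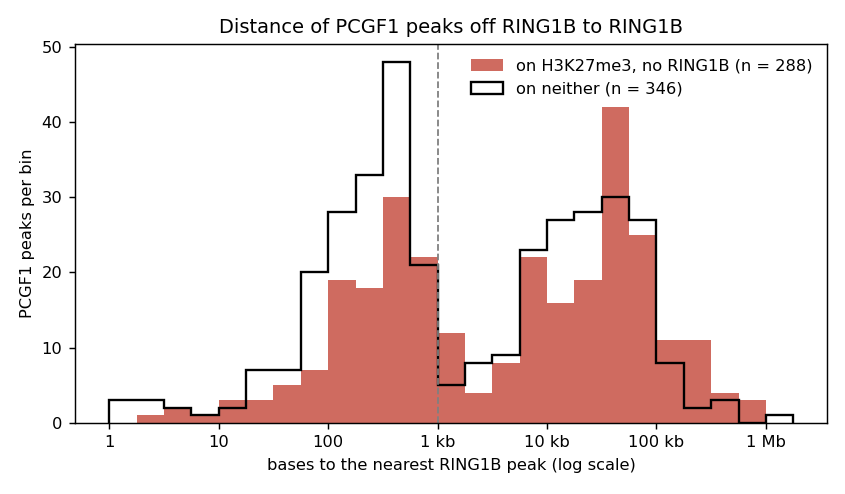
Number of PCGF1 peaks by the distance in bases to the nearest RING1B peak (log scale; the dashed line is at 1 kb; a gap of 0 is drawn at 1). Filled bars are the 288 peaks on H3K27me3 without RING1B and the outline the 346 peaks on neither; both distributions have a group below 1 kb, where 111 and 175 peaks lie, and another beyond 5 kb.

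With RING1B elsewhere in the same H3K27me3 region taken into account, the sites were described in 3 groups. The first held the 111 sites with RING1B within 1 kb, called edge sites below. The second held 33 sites (11.5%, 8.02 to 15.7) whose region had a RING1B peak farther off. The third held 144 sites (50%, 44.1 to 55.9) with RING1B neither in the region nor within 1 kb, called remote sites below. The name remote refers to the region and not to a set distance. Gaps to RING1B began at 1130 bp in both the second and the third group and reached 72607 bp in the second.

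Edge sites flanked RING1B, mostly inside the same stretch of H3K27me3. Their median gap was 270 bp, and for 101 of the 111 (91.0%, 84.1 to 95.6) the nearest RING1B peak lay on the same H3K27me3 region. Their centres lay a median of 4781 bp from the region's border. A RING1B peak within 1 kb therefore largely had to fall on that region. The nearest RING1B peak held another PCGF1 peak in 69 cases (62.2%, 52.5 to 71.2), beside 1461 of the 24987 peaks in the RING1B list. Cases were counted by site, so a RING1B peak near several sites counts more than once. Of the 111 sites, 11 lay in 1 region of chromosome 8. The 104 RING1B peaks within 1 kb of a site had a median width of 879.5 bp (685 to 1104) and a median fold enrichment of 3.30, where fold is the authors' ratio over the background of their peak caller. The 1461 RING1B peaks that held PCGF1 had medians of 2054 bp and 3.55. Medians were 1170 bp (1131 to 1201) and 3.20 for the 11081 on H3K27me3, and 744 bp and 3.22 for the whole RING1B list. A wider RING1B peak is likelier to share a base with a PCGF1 peak, so these widths and the rule are not independent. The closest case was chromosome 8, 12976647 to 12976808, where 3 bases separated a 162 bp PCGF1 peak from a RING1B peak. The 5 closest sites were 3 to 13 bp from RING1B and differ from PCGF1 peaks on both lists by a few bases: 4 sites were under 10 bp from RING1B, and 2 peaks on both lists shared under 10 bp with it. At the other edge of the rule, 826 of the 1007 peaks on both lists lay wholly inside RING1B.

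Remote sites lay a median of 41775.5 bp (37413 to 50128) from RING1B. The farthest was chromosome 19, 51217192 to 51217249, with 778946 bp to the nearest RING1B peak, and the next were chromosome 7, 124524487 to 124524553 (748291 bp), and chromosome 6, 109455256 to 109455456 (659520 bp). All 5 of the farthest sites lay on regions with no RING1B. Their gaps of 450815 bp or more fix this, since the widest region in the list spans 275160 bp. Of these 5 sites, 1 lay on a region wider than 10 kb, beside 66.3% of all 288 sites.

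In peak strength the RING1B-free sites stood near the middle of the PCGF1 list. Their median fold was 4.79 (4.73 to 4.84), and the median of the whole list was also 4.79. It was 4.90 (4.87 to 4.93) for peaks on both RING1B and H3K27me3, 4.76 for peaks on RING1B only and 4.65 for peaks on neither. The median -log10 q, the authors' significance per peak, was 1.90 (1.81 to 2.01) in the 288 sites, 2.19 in peaks on both, 1.89 on RING1B only and 1.64 on neither. The lowest -log10 q in the list was 1.08, so most sites lay near the threshold of the list. A -log10 q of at least 5 was reached by 4 of the 288 sites (1.39%, 0.380 to 3.52), beside 2.49% of the whole list and 35 of the 1007 peaks on both.

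The sites were shorter by median than peaks on both, on RING1B only and over the whole list, and close to peaks on neither. Their median width was 172.5 bp (160 to 203), against 224 bp (215 to 233) for the whole list. It was 378 bp (343 to 408) for peaks on both, 214.5 bp for RING1B only and 157.5 bp for neither. Up to 100 bp were 65 sites (22.6%, 17.9 to 27.8), against 17.8% of the whole list. Peaks that narrow were 12.7% of those on both, 169 of 928 on RING1B only and 95 of 346 on neither. Over 1000 bp were 13 sites (4.51%, 2.43 to 7.60), against 10.0% of the whole list. Peaks that wide were 204 on both (20.3%, 17.8 to 22.9), 39 of 928 on RING1B only and 1 of 346 on neither. The share of sites over 1000 bp was thus near that of peaks on RING1B only. The 3 groups of sites had median widths of 146, 182 and 190.5 bp, in the order edge, farther off and remote, and median folds of 4.76, 4.59 and 4.84. No edge site was wider than 748 bp. A wide peak close to RING1B is likelier to touch it and so to leave the set. Width and these groups are therefore not independent. Remote were 10 of the 13 sites over 1000 bp and all 4 sites with a -log10 q of at least 5, beside 144 of all 288 sites.

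**Figure D2:**
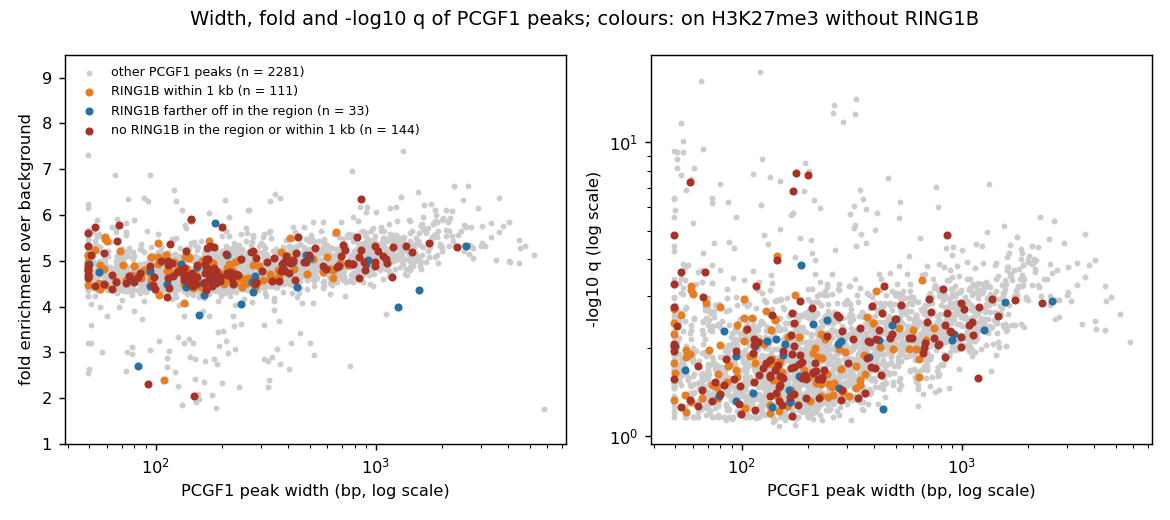
Authors' fold (left) and -log10 q (right, log scale) of each PCGF1 peak against its width in bp (log scale). Coloured points are the 288 RING1B-free sites on H3K27me3 in their 3 groups (111, 33 and 144) and grey points the other 2281 peaks; the sites lie within the grey cloud in fold, with few beyond 1000 bp.

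At matched width the fold differed little between the classes. Among peaks of 100 to 200 bp the median fold was 4.73 (4.64 to 4.81) in 95 sites, 4.65 (4.60 to 4.68) in peaks on both, 4.68 in those on RING1B only and 4.59 (4.56 to 4.65) in those on neither. Among peaks of 200 to 500 bp it was 4.72 (4.68 to 4.84) in 81 sites and 4.81 (4.77 to 4.85) on both. Over 1000 bp it was 5.20 (4.65 to 5.31) in the 13 sites and 5.33 (5.29 to 5.39) on both. The order of sites and peaks on both thus changed with width, and their intervals overlapped in each of these classes.

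Among PCGF1 peaks on H3K27me3, the share without RING1B fell from narrow to wide peaks. It was 33.7% (65 of 193, interval 27.1 to 40.8) up to 100 bp and 33.5% (95 of 284) from 100 to 200 bp. It was then 21.9% (81 of 370) to 500 bp, 14.7% (34 of 231) to 1000 bp and 5.99% (13 of 217, 3.23 to 10.0) above that. A wider peak has more bases that can touch RING1B, so width and the rule are not independent. By -log10 q the share was 30.2% in the lowest 25% of these peaks, 25.3% and 20.7% in the next, and 12.7% (9.24 to 16.8) in the highest 25%. Median -log10 q was itself higher over 1000 bp than at 100 to 200 bp, 2.70 against 1.76 in the sites and 2.99 against 1.68 on both. The fall with -log10 q was not matched for peak width. By width of the H3K27me3 region the share was 27.9% (17.1 to 40.8) up to 2 kb, 26.9% to 5 kb, 26.0% to 10 kb, 22.5% to 20 kb and 15.7% (12.3 to 19.7) to 50 kb. It was 26.2% (20.6 to 32.6) on wider regions, which broke the fall. By distance to the region's border it was 22.2% within 1 kb of it and 20.4% (16.1 to 25.2) more than 10 kb inside.

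**Figure D3:**
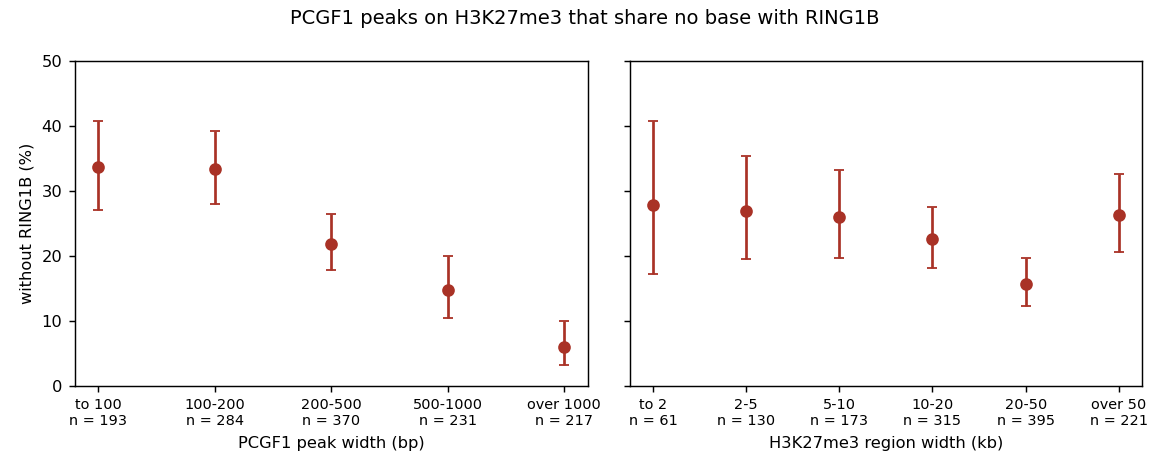
Percentage of PCGF1 peaks on H3K27me3 that share no base with RING1B, by width of the PCGF1 peak in bp (left) and of the H3K27me3 region in kb (right). Points are shares, bars exact 95% binomial intervals and n the number of PCGF1 peaks; the left panel falls from 33.7% to 5.99%, and the right one has its lowest value, 15.7%, at 20 to 50 kb.

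The H3K27me3 regions under the sites were wide and tall against the whole H3K27me3 list. A wider region has more bases that can meet a PCGF1 peak, so region width and the choice of regions are not independent. The 288 sites lay on 218 regions, each site on 1 region. Median region width was 13700 bp (12180 to 17080), against 15660 bp for the 671 regions with a PCGF1 peak on RING1B and 1840 bp for all 135391 regions. Height, the highest signal in a region on a scale the authors do not state, had a median of 154.7 (141.7 to 163.7), against 158.5 and 68.5. Of the 218 regions, 58 also held PCGF1 on RING1B and so stand in both groups. The 118 regions with a site and no RING1B were narrower and lower than the 671. Median width was 10345 bp (7290 to 13320) against 15660 bp (14080 to 17490). Median height was 130.6 (119.6 to 150.9) against 158.5 (154.8 to 165.3). RING1B lay in 1.75% of all regions up to 2 kb and 70.3% of those over 50 kb, so asking for no RING1B favours narrow regions. The height contrast with the 671 was not matched for region width. At least the list's median height was reached by 211 of the 218 regions (96.8%). The part of the region's width above the caller's cutoff had a median of 29.5%, against 29.8% for regions with PCGF1 on RING1B and 11.2% for all regions. That part was not compared within classes of region width.

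Wide regions are also tall, so heights were set side by side within classes of width. The 118 regions with a site and no RING1B had a higher median than regions with neither RING1B nor PCGF1 in each of 6 classes. Up to 2 kb it was 82.8 (59.8 to 112.6, 16 regions) against 60.8, and from 2 to 5 kb 99.7 (84.0 to 128.0, 20 regions) against 71.6. From 5 to 10 kb it was 112.0 (92.5 to 145.1, 21 regions) against 86.7. From 10 to 20 kb it was 147.9 (127.0 to 163.7, 31 regions) against 101.7, and from 20 to 50 kb 167.5 (140.1 to 177.6, 24 regions) against 120.6. Above 50 kb it was 176.6 (160.5 to 213.2) in 6 regions against 147.0. The lower bound was above the other median in 5 of the 6 classes, the exception being regions up to 2 kb.

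**Figure D4:**
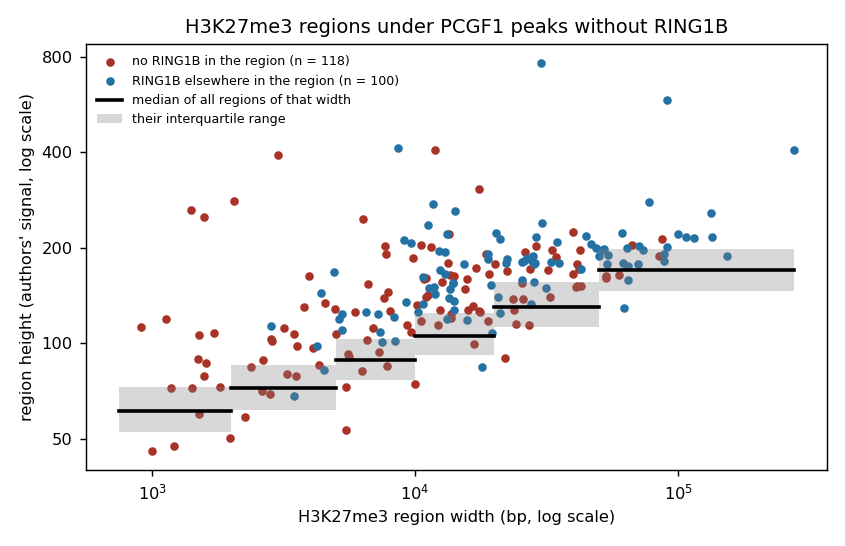
Height (authors' signal, log scale) against width (bp, log scale) of the 218 H3K27me3 regions that hold a RING1B-free PCGF1 site, by whether RING1B lies elsewhere in the region. Black lines and grey bands are the median and interquartile range of all regions in 6 classes of width; most points lie above the line, and the tallest point, at 764, is a region with RING1B.

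RING1B was often present elsewhere in the region. It lay in 135 of the 288 sites' regions (46.9%, 41.0 to 52.8), and in 100 of the 218 regions (45.9%, 39.1 to 52.7), beside 5.57% of all H3K27me3 regions. Wide regions hold RING1B more often, so the shares were also set side by side within classes of width, where the gap was smaller. Counted by region, RING1B lay in 25 of the 31 regions over 50 kb with a site (80.6%, 62.5 to 92.5), against 70.3% (65.1 to 75.1) of all such regions. From 20 to 50 kb it was 28 of 52 (53.8%, 39.5 to 67.8) against 42.4%, and from 10 to 20 kb 28 of 59 (47.5%, 34.3 to 60.9) against 23.7%. From 5 to 10 kb it was 13 of 34 (38.2%, 22.2 to 56.4) against 12.8%, and from 2 to 5 kb 6 of 26 (23.1%, 8.97 to 43.6) against 4.71%. Up to 2 kb it was 0 of 16 (upper bound 20.6%) against 1.75%. The interval held the share of all regions in the widest class, at 20 to 50 kb and up to 2 kb. Of the 127853 regions without RING1B, 121 (0.0946%) held any PCGF1 peak. A site lay in 118 of them, which the rule largely fixes. The share with PCGF1 was 0.0251% in RING1B-free regions up to 2 kb, 0.707% from 10 to 20 kb and 5.88% (6 of 102, 2.19 to 12.4) above 50 kb. Over all regions of these widths, with or without RING1B, it was 0.0782%, 3.58% and 24.5%. A wider region has more room for a peak, and these shares were not set per base.

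Position within the region was close to that of PCGF1 peaks on both lists over all sites. Distance to the border in bp differed between the groups of sites. Wholly inside H3K27me3 lay 268 of 288 (93.1%, 89.5 to 95.7), against 91.6% of peaks on both, and 6 sites were under 50% covered by the mark. The peak centre lay within 1 kb of the border or beyond it in 56 sites (19.4%), against 19.5% on both, and in the middle 50% of the region in 162 (56.3%), against 53.9%. The median distance to the nearer border was 4170.5 bp, against 4544.5 bp (4195 to 4954). Remote sites lay nearer to the border in bp, with a median of 3072.75 bp (2316.5 to 3895) and 25.7% (18.8 to 33.6) within 1 kb of it. Their regions were also narrower: median region width by site was 10510 bp, against 20320 bp for edge sites and 30230 bp for those farther off. Relative to region width they were not nearer to the border than edge sites. In the middle 50% of the region lay 58.3% (49.8 to 66.5) of remote, 50.5% (40.8 to 60.1) of edge and 66.7% (48.2 to 82.0) of farther-off sites. Of the 33 sites with RING1B farther off in the region, 1 lay within 1 kb of the border (3.03%, 0.0767 to 15.8), and their median distance was 9552 bp. H3K27me3 covered a median of 58.4% (53.0 to 65.5) of the 50 kb around a site, against 63.4% (61.2 to 65.8) on both. It was 15.9% for PCGF1 on RING1B only and 11.4% on neither. The window includes the site's own H3K27me3 region, so the rule largely fixes the contrast with these classes off the mark. For remote sites the cover was 50.8% (36.6 to 54.8), and for edge sites 67.8% (54.9 to 78.8).

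How often another PCGF1 peak lay close by differed between the groups of sites. Over all sites, another PCGF1 peak lay within 1 kb of 171 of the 288 (59.4%, 53.5 to 65.1), beside 45.2% of the whole list. By group it was 85 of 111 edge sites (76.6%, 67.6 to 84.1), 20 of the 33 sites with RING1B farther off in the region (60.6%, 42.1 to 77.1) and 66 of 144 remote sites (45.8%, 37.5 to 54.3), the last near the share of the whole list. The other classes had 55.0% of peaks on both, 36.5% on RING1B only and 28.0% on neither. Which class that neighbour had differed too. Of the 85 edge sites with such a neighbour, the nearest was a peak on both RING1B and H3K27me3 in 59 (69.4%, 58.5 to 79.0). Of the 66 remote sites with one, it was another RING1B-free site on H3K27me3 in 64 (97.0%, 89.5 to 99.6) and a peak on both in 0, which the distance to RING1B that defines these groups largely fixes.

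Joining PCGF1 peaks within 1 kb of each other gave 1888 clusters, of which 224 held a site. Among these, 117 were a single peak, 45 held RING1B-free sites only, 2 or more each, and 62 also held other PCGF1 peaks. Neighbouring PCGF1 peaks were never closer than 197 bp in the list, so a close pair may be 1 stretch of signal listed in pieces, which was not tested. A region held 1 site in 165 cases, 2 in 46, 3 in 4, 4 in 2 and 11 in 1.

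The 7 regions with 3 or more sites were of different kinds. On chromosome 17, the region 26336870 to 26341810 (4940 bp, height 128.0) held 4 sites of fold 4.49 to 5.07 within 2713 bp, no other PCGF1 peak and no RING1B peak, the nearest being 49217 bp away. A similar case on chromosome 15, 82039480 to 82045800 (6320 bp, height 246), held 3 sites of fold 4.52 to 5.32 within 1566 bp, no other PCGF1 peak and no RING1B, with RING1B 5707 bp away at the closest. These 2 were the regions of the 7 that had no RING1B.

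The region with most sites was on chromosome 8, 126061200 to 126152230, 91030 bp wide and 586 high, the tallest of the 343 regions over 50 kb. It held 48 PCGF1 peaks and 30 RING1B peaks. Of the PCGF1 peaks 37 lay on RING1B and 11 did not, and these 11 sites, of fold 4.58 to 5.88, lay 96 to 587 bp from RING1B. All 11 were thus edge sites: 9 lay between RING1B peaks of the region and 2 beyond the outermost ones. Without this region, left out after its values were seen, 277 sites remained, with RING1B in the region for 44.8% and another PCGF1 peak within 1 kb for 57.8%.

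On chromosome 1, the region 172993760 to 173023990 (30230 bp) was the tallest of the 2387 regions of 20 to 50 kb, at 764. It held 4 sites of low fold, 3.83 to 4.37, and 1 RING1B peak of fold 2.27, which lay 1211 to 14467 bp from them. The other 3 regions had RING1B and 3 sites each: chromosome 15, 78522320 to 78573580, chromosome 2, 35401270 to 35536150, and chromosome 19, 44656030 to 44931190. The last was, at 275160 bp, the widest region of the whole list, and its 3 sites lay within 1612 bp of sequence.

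Of the 10 sites with the highest fold, 7 were remote sites, beside 144 of all 288 sites. The highest was chromosome 2, 32208002 to 32208858, an 857 bp peak of fold 6.35 and -log10 q 4.83 at the border of an 8010 bp region, with RING1B 8109 bp away. It was the only site of fold above 6 (0.347% of the sites), beside 40 peaks of the whole list (1.56%). That fold was exceeded by 2.68% of peaks on both (27), 0.754% on RING1B only and 1.45% on neither. Next came chromosome 9, 108998127 to 108998270 (fold 5.92, RING1B 104436 bp away), a site in the dense chromosome 8 region, 126148300 to 126148444 (5.88, 542 bp), and chromosome 2, 35437599 to 35437783 (5.82, 72361 bp). Among these 10 sites, 8 had another PCGF1 peak within 1 kb and 8 lay on regions wider than 10 kb. Over all 288 sites these shares were 59.4% and 66.3%, and 10 sites are too few to set them apart.

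**Figure D5:**
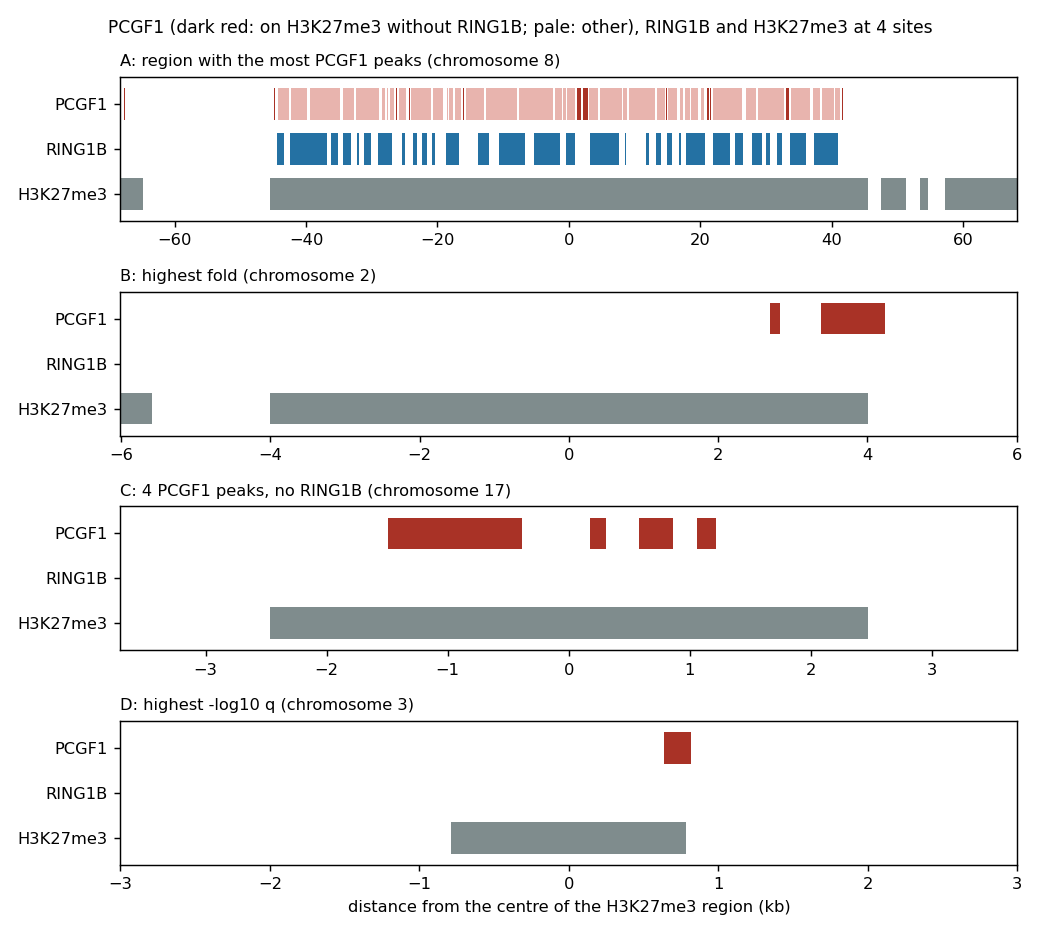
Positions of PCGF1, RING1B and H3K27me3 peaks around 4 H3K27me3 regions, as distance from the region's centre in kb (scales differ between panels). Dark red bars are RING1B-free PCGF1 sites on H3K27me3 and pale red bars other PCGF1 peaks; the region in A has 11 sites among 30 RING1B peaks, and no RING1B peak lies in the windows of B, C and D.

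The 4 sites of highest -log10 q were single PCGF1 peaks on short H3K27me3 regions, and 1 of them, on chromosome 6, was also among the 10 of highest fold. They were chromosome 3, 37380506 to 37380681 (-log10 q 7.85, fold 5.32), chromosome 6, 109455256 to 109455456 (7.76, fold 5.74), chromosome 19, 51217192 to 51217249 (7.35, fold 5.18), and chromosome 11, 33654865 to 33655035 (6.84, fold 5.29). Their regions were 1130 to 2040 bp wide, and 3 of them were 250 to 282 high against medians of 61.0 over all regions up to 2 kb and 72.0 over those of 2 to 5 kb. None had another PCGF1 peak within 1 kb. Of the 35 peaks on both lists with a -log10 q of at least 5, all 35 were likewise without a PCGF1 neighbour within 1 kb, and 20 lay on regions up to 3 kb. Their median fold of 4.08 was below the 5.30 of the 4 sites. The part of local background in these values was not tested.

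The widest site, chromosome 12, 81858448 to 81861013, spanned 2566 bp with a fold of 5.31, in a region of 100070 bp with 8 RING1B peaks, the nearest 5791 bp away. The next, chromosome 5, 115878749 to 115881071, spanned 2323 bp with a fold of 5.31 in a region without RING1B, 12972 bp from the nearest. Of the 10 widest sites, 7 lay on regions with no RING1B and 0 within 1 kb of RING1B. Over all 288 sites these counts were 153 and 111. Since a wide peak close to RING1B is likelier to touch it, the rule partly fixes this contrast.

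Folds below 4 were found mostly on the tallest regions. A fold below 4 was found in 6 sites (2.08%), against 3.04% of the whole list. These sites lay on 4 regions, with region heights of 392.5 or more and a median over the sites of 414.5. Sites that share a region are not independent. Sites on regions of height 400 or more were 21, on 5 regions, and 5 of them had a fold below 4, against 1 of the 267 sites on lower regions. The median fold was 4.73 over all 21 sites on tall regions and 4.79 on lower ones, and 4.02 over the 10 sites on tall regions outside the dense chromosome 8 region. Among peaks on both, the medians were 5.0 on tall regions, 3.46 on the 29 outside the dense region, and 4.89 on lower ones, and 17 of 66 on tall regions had a fold below 4, against 13 of 941 on lower ones. The limits of 4 and 400 were set after the values were seen, and here too local background was not tested.

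Sites were found on all autosomes and X. Their share of a chromosome's PCGF1 peaks was 17.9% (22 of 123, 11.6 to 25.8) on chromosome 7, 16.8% (33 of 196, 11.9 to 22.8) on chromosome 8 and 15.3% (27 of 176) on chromosome 4. It was lowest on chromosome 3, at 3.67% (4 of 109, 1.01 to 9.13), and chromosome 13, at 4.44% (4 of 90). Without the dense region the share on chromosome 8 was 14.9% (22 of 148, 9.56 to 21.6). On X it was 2 of 13.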

How the data were processed

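PCGF1, RING1B and H3K27me3 were mapped by chromatin immunoprecipitation sequencing, with 2 libraries behind each list. The tools listed in the submitters' processing notes are Bowtie2, Picard and SAMtools 1.6.0, and the builds are dm3 and mm9, without roles; mouse positions were taken to be mm9. Which caller made the peaks, with what threshold and control, and whether reads of the 2 libraries were pooled first, is not given in the sources used here. For PCGF1 and RING1B the authors deposited a fold (a ratio over the caller's background), a -log10 q and a score per peak, the score being 10 times the -log10 q, rounded down. For H3K27me3, per the file headers, the deposited values used are a signal (height, scale not stated) and the bases of a region above the cutoff. All of these came with the peaks from the authors and were used only to describe, rank or filter within a list.

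Overlap of at least 1 bp, gaps in bases, and medians and shares by class were computed with Python 3.11.15, numpy 2.4.6, pandas 2.3.3 and scipy 1.17.1. Overlaps were tested on simulated data. Shares have exact 95% Clopper-Pearson intervals and medians exact binomial order-statistic intervals. No test was run, since no list has replicates. PCGF1 positions are 1-based, and those of H3K27me3 are as listed; counting the latter from 1 also gave 288 sites. Width classes include their upper bound.

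The members and lists were chosen with earlier results of these data known. Sites were named by rule: the 10 of highest fold, the 10 of highest -log10 q, the 10 widest, the 10 on the tallest regions, regions with 3 or more, the 5 nearest to RING1B and the 5 farthest. Any other was named after its values were seen. Alternatives were 50% cover by H3K27me3, no RING1B within 1 kb or 10 kb, PCGF1 or RING1B peaks of -log10 q of at least 2, the taller 50% of H3K27me3 regions and leaving out chromosome 8; leaving out the region with most PCGF1 peaks was chosen after seeing the data. Genes and sequences were not assigned, because the gene table used here belongs to GRCm38.p6.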

Additional observations from a re-analysis of the deposited data

How the results depend on the processing

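Of 38 recomputed values, 31 stayed within 1.5 times the count or within the interval of the value, and 7 moved. The count of 288 became 177 with no RING1B peak within 1 kb, 131 with none within 10 kb and 129 when only PCGF1 peaks of -log10 q 2 or more were kept. The last setting also gave a median width of 245 bp and a median fold of 5.05. With no RING1B within 1 kb, RING1B was in the region of 18.6% of sites and within 10 kb of 26.0%, as that setting leaves out the edge sites. The count ran from 255 to 370 under the other 5 settings and was highest when RING1B peaks of -log10 q under 2 were ignored. No paired analysis was possible because there is 1 list for both libraries of a group, with no values per library. Depth is unknown, so a site without RING1B may hold RING1B below the threshold of that list.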
